A study of Mus musculus with 7 samples.

Results

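Oligodendrocytes, the cells that wrap axons of the brain and spinal cord in myelin, arise from dividing precursor cells that spread through the embryonic brain. A small set of genes marks the steps of this path. The transcription factors Olig1, Olig2, Sox10 and Sox8 set up and maintain the lineage, the surface proteins Pdgfra, Cspg4 and Gpr17 mark precursors and cells committed to differentiate, and Bcas1 and Mbp mark cells that begin to make myelin. Oligodendrocyte precursors are a glial population, separate from neurons. The 9 genes described here were chosen by name, as the rows of the deposited table that carry these 9 symbols among 18331 uniquely named genes. They were proposed with the comparison of Npy and Pomc neurons in view, so that comparison is given for them as a description, with no test.

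RNA was measured in neurons purified by fluorescence-activated cell sorting from dissociated arcuate nuclei of E15.5 mouse embryos, a stage late in gestation. The groups were Npy neurons, which make the feeding peptide neuropeptide Y, with 3 deposited columns, and Pomc neurons, which make the precursor of appetite-suppressing peptides, with 4 columns. The sources used here do not give the strain, the reporter allele that the sort relied on or the embryos behind each library, and the spread between libraries may be technical. Values are TPM, a transcript abundance that is scaled for gene length and sums to the same total in each library. They carry no read counts, so depth is unknown, and a gene listed at 0 may still be present.

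The column of Npy replicate 3 was left out, because it can be computed from the other 2 Npy columns. In each of the 15223 genes above 0 in either of them, its value is their mean scaled by 95 to 105%, always a whole percent (tolerance 1e-04 percentage points). Comparisons therefore rest on 2 Npy and 4 Pomc libraries, for which the smallest p of an exact permutation test is 0.0667. The Npy libraries held 14933 and 12922 genes above 0, and the Pomc libraries 12493 to 14656. Short structural RNA genes took 14.1 and 17.3% of the Npy libraries and 10.8 to 13.2% of the Pomc libraries, so composition differed with the groups. The sort genes followed their labels. Npy had 728 and 513 TPM in the Npy libraries, against 152, 2.11, 81.0 and 54.2 TPM in the Pomc libraries, and Pomc had 24.0 and 59.4 TPM in the Npy libraries, against 770, 352, 397 and 553 TPM in the Pomc libraries. Agrp, which adult Npy neurons also make, had 5.53 and 1.75 TPM in the Npy libraries and overlapped with the Pomc libraries, which had 0 to 6.82 TPM.

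The 9 genes divided into 6 that were present in both Npy libraries and at or near 0 in Pomc libraries, and 3 whose values overlapped between the groups. The 6 were Olig1, Olig2, Sox10, Pdgfra, Cspg4 and Gpr17. The 3 were Sox8, Bcas1 and Mbp. Over all 13845 genes tested, both Npy values lay above every Pomc value in 7.86% of genes, and both lay below every Pomc value in 8.05%, 15.9% in all. All 9 genes reached 1 TPM in at least 2 libraries, the filter used, and 3 of them would have done so in the Pomc libraries alone. The other 6 passed through the Npy libraries, which fixed their direction, so the count of 6 is not read against the background.

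Sequences just upstream of the start site are shown for the 4 genes with an entry in the RefSeq promoter table (GRCm38.p6), 3 from the set at or near 0 in Pomc libraries and Sox8 from the set that overlapped. Each runs 5′ to 3′ from 250 bases before the RefSeq start. GENCODE places the starts of Olig2 and Cspg4 93 and 71 bases before those of RefSeq, so these are shown up to the GENCODE start, over 157 and 179 bases, and the other pair over 250 bases. Capitals mark matches on either strand to 5 words, namely CAGCTG (the E-box of many helix-loop-helix factors), ACAAAG and AACAAT (SOX-type words), TATAAA (the TATA box) and CCAAT. No word contains another.
Olig2, chr16:91225300-91225456, plus strand: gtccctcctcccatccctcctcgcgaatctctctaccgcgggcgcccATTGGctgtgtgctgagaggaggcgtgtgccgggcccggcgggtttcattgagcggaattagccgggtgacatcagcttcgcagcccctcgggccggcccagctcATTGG
Pdgfra, chr5:75152001-75152250, plus strand: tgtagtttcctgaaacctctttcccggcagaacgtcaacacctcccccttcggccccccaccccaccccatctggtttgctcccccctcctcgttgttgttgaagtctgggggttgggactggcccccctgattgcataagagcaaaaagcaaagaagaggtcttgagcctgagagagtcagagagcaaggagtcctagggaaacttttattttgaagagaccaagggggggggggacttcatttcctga
Cspg4, chr9:56864854-56865032, plus strand: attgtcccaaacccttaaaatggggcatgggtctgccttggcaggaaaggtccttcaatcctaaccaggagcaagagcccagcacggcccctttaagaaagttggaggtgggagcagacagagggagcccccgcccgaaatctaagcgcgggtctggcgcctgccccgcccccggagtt
Sox8, chr17:25570687-25570936, minus strand: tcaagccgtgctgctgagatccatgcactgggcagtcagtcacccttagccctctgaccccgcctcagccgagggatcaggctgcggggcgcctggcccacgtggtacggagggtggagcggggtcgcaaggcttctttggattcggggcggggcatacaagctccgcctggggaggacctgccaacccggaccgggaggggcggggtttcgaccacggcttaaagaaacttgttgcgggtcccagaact

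The upstream stretch of Olig2 held 2 matches to CCAAT and none to the other words. The stretches of Pdgfra, Cspg4 and Sox8 held none of the 5 words. Over the same 157 bases of all 32851 entries in the table, 21.0% held CCAAT. Over 250 bases, 33.8% held CCAAT, 9.42% AACAAT, 12.4% TATAAA, 16.5% ACAAAG and 13.0% CAGCTG. CpG dinucleotides numbered 14 upstream of Olig2 and 8 upstream of Cspg4, with a median of 3 over the table for stretches of either length, and 18 upstream of Sox8 and 4 upstream of Pdgfra, with a median of 6. The 3 genes shown from the set at or near 0 in Pomc libraries therefore shared none of these words, and their CpG counts lay on both sides of the medians.

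**Figure D1:**
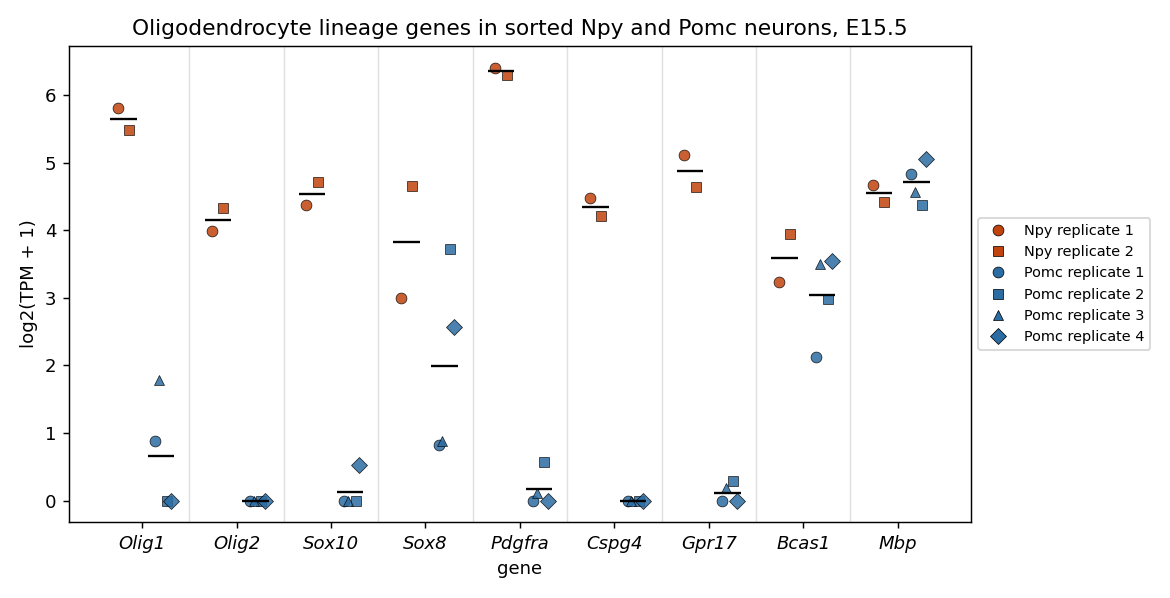
Level of the 9 genes as log2(TPM + 1) in each Npy library (orange, left) and Pomc library (blue, right), with a bar at each group mean. Olig1, Olig2, Sox10, Pdgfra, Cspg4 and Gpr17 stand at 14.8 TPM or more in both Npy libraries and at 2.43 TPM or less in every Pomc library, while Sox8, Bcas1 and Mbp overlap.

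Olig1 and Olig2 encode helix-loop-helix factors that lie next to each other on chromosome 16 and specify the precursor fate, Olig2 also that of motor neurons in the spinal cord. Olig1 (91269772 to 91271933, GRCm38) had 54.8 and 43.9 TPM in the Npy libraries, against 0.849, 0, 2.43 and 0 TPM in Pomc replicates 1 to 4. Olig2 (91225457 to 91228677) had 14.8 and 19.0 TPM in the Npy libraries, against a listed 0 in each of the 4 Pomc libraries. In both genes the groups were far apart, and Olig1 was the only gene of the 6 to pass 1 TPM in a Pomc library. The log2(TPM + 1) difference of Olig1, Npy minus Pomc, was 4.98, a scale on which changes of low genes come out too small. A gap of 41095 bases separates the pair in the annotation.

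Sox10 and Sox8 are members of the SoxE family of HMG-box factors. Sox10 drives myelin gene expression and also marks neural crest and Schwann cells, and Sox8 acts beside it with an overlapping role. Sox10 (chromosome 15, 79154908 to 79165240) had 19.7 and 25.1 TPM in the Npy libraries, against 0, 0, 0 and 0.444 TPM in Pomc replicates 1 to 4. Sox8 (chromosome 17, 25565892 to 25570686) had 6.97 and 24.1 TPM in Npy replicates 1 and 2, against 0.763, 12.1, 0.842 and 4.95 TPM in Pomc replicates 1 to 4. The 2 relatives thus differed in pattern. Sox10 separated the groups, whereas Pomc replicate 2 stood above Npy replicate 1 in Sox8, and without either of these libraries the groups of Sox8 would not overlap. The log2 difference was 4.41 for Sox10 and 1.83 for Sox8, and the Npy libraries themselves differed 3.46-fold in Sox8, the widest such ratio of the 9 genes.

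Among the surface proteins, Pdgfra is the receptor for platelet-derived growth factor A and carries the signal that keeps precursors dividing. Pdgfra (chromosome 5, 75152292 to 75198215) had 83.7 and 77.5 TPM in the Npy libraries, against 0, 0.484, 0.0795 and 0 TPM in Pomc replicates 1 to 4. It was the highest of the 9 genes in both Npy libraries, where 82.8 and 79.4% of the genes above 0 had a lower TPM. Its log2 difference was 6.18, and its Npy values differed from each other by a factor of only 1.08. Cspg4 (chromosome 9, 56865033 to 56899870) encodes the NG2 proteoglycan, found on precursors and on pericytes. It had 21.3 and 17.5 TPM in the Npy libraries, against a listed 0 in each of the 4 Pomc libraries.

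Gpr17 encodes a G protein-coupled receptor of cells that have left the precursor state and not yet made myelin. Gpr17 (chromosome 18, 31942997 to 31949636) had 33.6 and 24.0 TPM in the Npy libraries, against 0, 0.222, 0.133 and 0 TPM in Pomc replicates 1 to 4, a log2 difference of 4.76. All 3 surface genes separated the groups without overlap. Lims2, a gene on the opposite strand whose exons overlap those of Gpr17, had 4.58 and 1.02 TPM in the Npy libraries and 1.32 to 10.6 TPM in the Pomc libraries. Its values were not higher in the Npy libraries. The sources used here do not say whether strand was used in counting, so it is unknown whether reads of such overlapping pairs were told apart. The same holds for Sox8 and Bcas1, which overlap antisense genes listed at 0 to 2.61 TPM. It also holds for Olig1, whose exons overlap those of Gm15966 on the opposite strand, a gene without a listed value. The exons of Pdgfra contain Mir7025 on the same strand, which strand would not separate. Mir7025 was at 31.1 TPM in Npy replicate 1 and 0 in the other 5 libraries.

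Bcas1 and Mbp, the genes of maturing cells, did not separate the groups. Bcas1 (chromosome 2, 170346991 to 170427845) marks early myelinating oligodendrocytes. It had 8.41 and 14.4 TPM in the Npy libraries, against 3.37, 6.90, 10.3 and 10.7 TPM in Pomc replicates 1 to 4. Npy replicate 1 lay within the Pomc range, Npy replicate 2 lay above it, and the log2 difference of 0.55 was smaller than the SD over Pomc libraries on that scale, 0.66. Mbp (chromosome 18, 82475146 to 82585637) encodes myelin basic protein, and the same gene also gives the golli transcripts, which neurons make. It had 24.5 and 20.4 TPM in the Npy libraries, against 27.5, 19.8, 22.8 and 32.0 TPM in Pomc replicates 1 to 4. Both Npy values lay within the Pomc range, with a log2 difference of -0.16, and the table, with 1 value per gene, does not tell golli from myelin transcripts.

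Within the Npy libraries, TPM allows the genes to be ranked. Pdgfra came highest and Olig1 next, with no overlap between their values or with the gene that followed. From Gpr17 downwards each gene overlapped its neighbour, in the order Gpr17, Mbp, Sox10, Cspg4, Olig2, Sox8 and Bcas1, whose means ran over the Npy libraries from 28.8 to 11.4 TPM. Only the top 2 places are therefore set apart beyond the spread of 2 libraries.

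Summed over the 6 genes that separated the groups, the level was 228 and 207 TPM in the Npy libraries, against 0.849, 0.706, 2.64 and 0.444 TPM in Pomc replicates 1 to 4. The Pomc sums were 0.204 to 1.22% of the mean Npy sum. Olig1 alone made up the sum in Pomc replicate 1 and nearly all of it in Pomc replicate 3. Summed over Sox8, Bcas1 and Mbp, the level was 39.9 and 59.0 TPM in the Npy libraries, against 31.6, 38.8, 33.9 and 47.7 TPM in Pomc replicates 1 to 4. In bulk libraries, fewer cells of a type and less RNA per cell cannot be told apart. After the TPM were rescaled without the short RNA genes, the same 6 genes separated the groups.

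**Figure D2:**
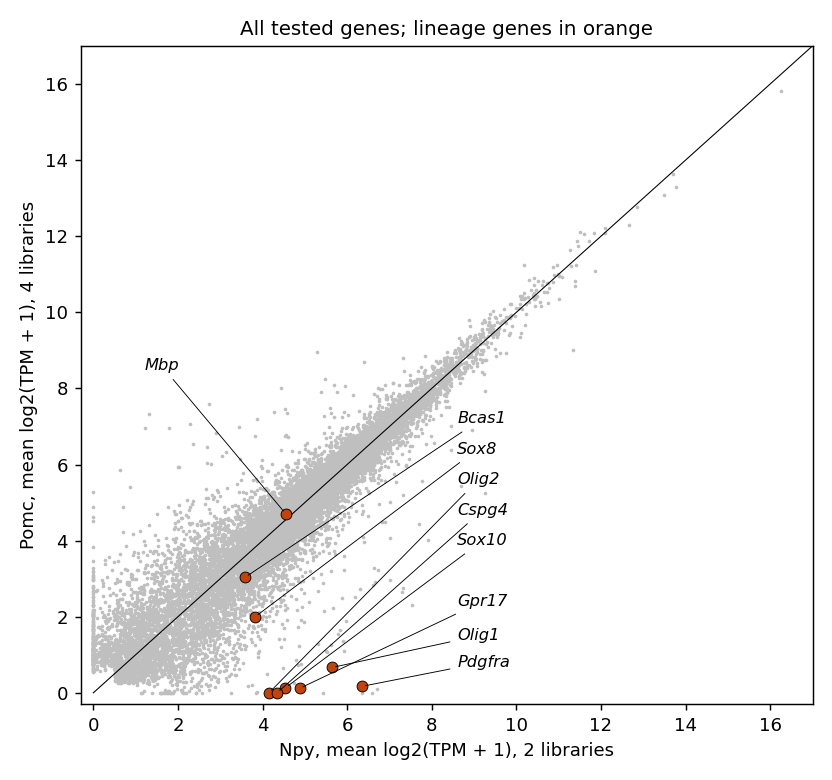
Mean log2(TPM + 1) over 2 Npy libraries (horizontal) against 4 Pomc libraries (vertical) for the 13845 genes tested, with the 9 lineage genes in orange and the line of equal level. Of the 9, 6 lie along the bottom edge, and Mbp (difference -0.16) and Bcas1 (0.55) lie near the line.

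The other genes of the lineage and of its signals were read from 1 limma fit over all 13845 genes (log2(TPM + 1), two-sided, Benjamini-Hochberg adjusted p of 0.05). That fit called 57 genes, or 0.412%, of which 17 were higher in Npy neurons (0.123%) and 40 lower (0.289%). Of the 56 other lineage and pathway genes that were tested, none was called higher, 1 was called lower and 55 did not pass; 12 had an unadjusted p under 0.05, as did 7.36% of all genes tested. The number of calls over all genes depended on single libraries, with 11 without Npy replicate 2, 30 without Pomc replicate 3, 31 without Pomc replicate 1 and 36 without Npy replicate 1.

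Of 15 tested further precursor genes, limma called none, with 5 at an unadjusted p under 0.05, and 11 had log2 differences above 0. The median log2 difference was 0.38, against -0.02 over all genes tested. Both Npy libraries stood above every Pomc library in 5 of the 15 genes, and in 7.86% of all genes tested. The 5 were Lhfpl3, Bcan, Rlbp1, Emid1 and Zeb2, named because of their values, and Rlbp1 and Emid1 reached the filter only through the Npy libraries, which fixed their direction. Rlbp1, a retinaldehyde-binding protein gene also used as a precursor marker, came closest to the mean pattern of the 9 genes. It had 7.84 and 8.09 TPM in the Npy libraries, against 0.895, 0, 0.208 and 0 TPM in Pomc replicates 1 to 4 (log2 2.87 ± 0.65, SE, limma adjusted p = 0.175). Bcan, which encodes the matrix proteoglycan brevican, had 19.6 and 42.1 TPM in the Npy libraries, against 2.92, 4.54, 1.25 and 3.23 TPM in the Pomc libraries (log2 2.98 ± 0.64, limma adjusted p = 0.145). Neither passed in this fit.

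The 3 most abundant of the further precursor genes had different patterns. Cacng4, an AMPA receptor auxiliary subunit that neurons also make, had 199 and 279 TPM in the Npy libraries, against 145 to 223 TPM in the Pomc libraries. Ptprz1, a receptor phosphatase of precursors and radial glia, had 108 and 45.7 TPM in the Npy libraries, against 25.7 to 69.4 TPM in the Pomc libraries. Vcan, the proteoglycan versican, had lower values in Npy neurons but did not pass in this fit. It had 84.2 and 56.3 TPM in the Npy libraries, against 139, 340, 252 and 224 TPM in Pomc replicates 1 to 4 (log2 -1.71 ± 0.33, limma adjusted p = 0.0967). Among the fits with 1 Pomc library left out, Vcan passed only without Pomc replicate 1 (limma adjusted p = 0.0336). Neu4 and Nkx6-2 were listed at 0 in all 6 libraries.

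Of 12 tested differentiation genes, Tcf7l2 was called lower in Npy neurons and 11 did not pass. Tcf7l2 encodes a Wnt pathway effector that newly formed oligodendrocytes use, and that many diencephalic neurons also express. It fell to 4.52 and 9.24 TPM in the Npy libraries, against 168, 85.2, 109 and 102 TPM in Pomc replicates 1 to 4 (log2 -3.92 ± 0.36, limma adjusted p = 0.00293). With the replicate number added to the fit as a block, Tcf7l2 did not pass (log2 -4.00, limma adjusted p = 0.0584). The abundant members Fyn, a kinase gene, and Nfasc, a gene of the axon initial segment and node, had overlapping values. Fyn had 216 and 217 TPM in the Npy libraries and 192 to 256 TPM in the Pomc libraries, and Nfasc had 126 and 104 TPM in the Npy libraries and 109 to 144 TPM in the Pomc libraries. Enpp6, a marker of newly formed oligodendrocytes, was listed at 0 in both Npy libraries and reached 0.0830 TPM in 1 Pomc library.

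Of the 12 genes of myelin and mature oligodendrocytes described here, 4 reached the filter and limma called none, with 0 at an unadjusted p under 0.05. Mog, Aspa and Mal, all made by mature cells, were listed at 0 in all 6 libraries. Cnp, a myelin enzyme gene and the most abundant of the 12, had 22.1 and 35.7 TPM in the Npy libraries and 21.9 to 35.3 TPM in the Pomc libraries. Gpr37, the next in abundance, had 3.83 and 8.49 TPM in the Npy libraries and 5.74 to 18.8 TPM in the Pomc libraries. Tspan2, a tetraspanin gene of myelin-forming cells, had 4.72 and 0.896 TPM in the Npy libraries and 0 to 7.99 TPM in the Pomc libraries. None of these genes had the pattern of Pdgfra or Olig2.

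**Figure D3:**
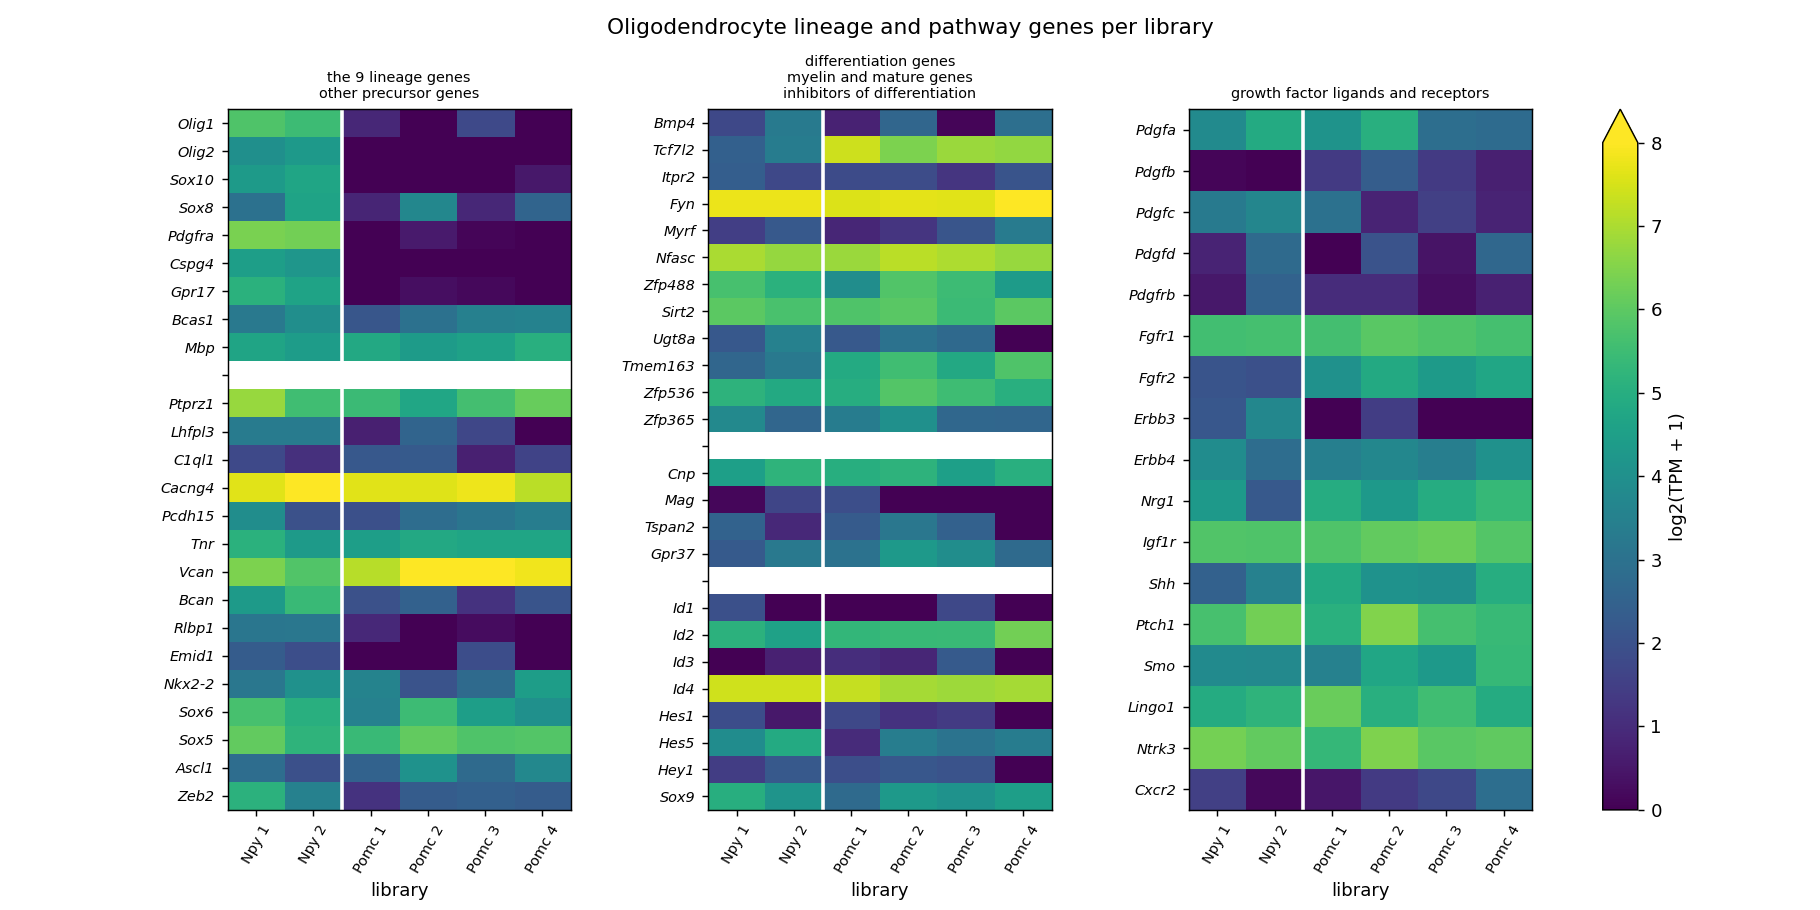
Level as log2(TPM + 1) of the 9 genes and of the tested genes of 5 further lists (rows) in each library (columns, Npy left of the white line), with the colour scale ending at 8. The dark Pomc cells beside lighter Npy cells in Olig1, Olig2, Sox10, Pdgfra, Cspg4 and Gpr17 contrast with the even rows of Mbp, Fyn and Cnp, and with Tcf7l2, which is lower in Npy libraries.

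Among 17 tested growth factor ligands and receptors, limma called none, with 5 at an unadjusted p under 0.05. Both Npy libraries stood above every Pomc library in 2 of the 17 and below in 4, against 7.86 and 8.05% of all genes tested. Of these, Erbb3 and Pdgfb reached the filter only through the group where they were higher, which fixed their direction. Pdgfa, named here as a ligand of Pdgfra, had 13.3 and 28.5 TPM in the Npy libraries, against 16.4, 32.3, 6.46 and 5.92 TPM in Pomc replicates 1 to 4. Pdgfa was thus present in both groups with overlapping values, unlike Pdgfra. Pdgfc, of the same ligand family, was 1 of the 2 genes above every Pomc library. It had 8.62 and 11.8 TPM in the Npy libraries, against 6.92, 0.738, 1.87 and 0.732 TPM in Pomc replicates 1 to 4 (limma adjusted p = 0.612). The most abundant members overlapped between the groups, as Pdgfa did. Ntrk3, a neurotrophin receptor gene, had 80.1 and 67.0 TPM in the Npy libraries and 39.1 to 87.5 TPM in the Pomc libraries. Igf1r, the insulin-like growth factor receptor gene, had 55.8 and 55.1 TPM in the Npy libraries and 54.6 to 73.4 TPM in the Pomc libraries. Ptch1, the Hedgehog receptor gene, had 49.98 and 78.2 TPM in the Npy libraries and 33.1 to 88.3 TPM in the Pomc libraries.

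The 8 inhibitors of oligodendrocyte differentiation, factors of the Id, Hes and Sox families, were all tested and limma called none, with 0 at an unadjusted p under 0.05. Id4, the most abundant, had 169.2 and 168.7 TPM in the Npy libraries, against 155, 121, 113 and 120 TPM in Pomc replicates 1 to 4 (limma adjusted p = 0.701). Id2 had 34.6 and 22.7 TPM in the Npy libraries and 38.2 to 77.6 TPM in the Pomc libraries. Sox9, the third SoxE gene, had 31.5 and 16.6 TPM in the Npy libraries and 5.74 to 21.2 TPM in the Pomc libraries, so its groups overlapped as those of Sox8 did.

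The other tested genes were ranked by how closely their centred log2(TPM + 1) profile over the 6 libraries followed the mean profile of the 9 genes, as a Euclidean distance. Among the 10 closest genes outside the 9 were Mbnl3, Plcz1, Tcf19, Rlbp1, Bcan, Dlx1, Birc5, Afap1l2 and Irx1, at distances of 0.87 to 1.31. Mbnl3, a gene of the muscleblind RNA-binding family, had 37.4 and 20.9 TPM in the Npy libraries and 0.961 to 1.60 TPM in the Pomc libraries. Dlx1, a homeobox gene of GABAergic neuron development, had 119.5 and 138.5 TPM in the Npy libraries and 10.9 to 23.8 TPM in the Pomc libraries. The profile uses the same comparison, so that these genes are higher in Npy libraries follows from the choice. Among the 9 genes, Olig2 lay closest to their mean profile, at 0.87, and Mbp farthest, at 4.23. By distance among all genes tested, Olig2, Cspg4, Sox10 and Gpr17 ranked 1, 4, 6 and 35. Olig1, Sox8, Pdgfra, Bcas1 and Mbp ranked 165, 547, 655, 1367 and 7453. The mean profile mixes genes that separated the groups with genes that overlapped, so closeness to it is not likeness to each of the 9.

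Other cell types that share genes with the lineage were checked by their own markers. Pdgfra also marks fibroblasts. Of 8 fibroblast and meningeal genes, Dcn, Lum and Twist1 were listed at 0 in all 6 libraries, and the list summed to 1.75 and 9.90 TPM in the Npy libraries and 2.96 to 11.2 TPM in the Pomc libraries. Cspg4 also marks pericytes, whose 7 genes summed to 4.67 and 17.2 TPM in the Npy libraries and 2.81 to 8.63 TPM in the Pomc libraries. Kcnj8, a pericyte channel gene, accounted for 7.80 TPM of the sum in Npy replicate 2 and was listed at 0 elsewhere. Rgs5 and Abcc9 were also highest in Npy replicate 2, at 2.24 and 2.56 TPM. Notch3, at 4.59 TPM there, was highest in Pomc replicate 4, at 8.63 TPM, and Anpep, Acta2 and Tagln were listed at 0 in Npy replicate 2. Sox10 also marks Schwann cells, for which 9 genes summed to 51.4 and 63.0 TPM in the Npy libraries and 22.7 to 35.6 TPM in the Pomc libraries. Most of that sum came from Gas7 and Pou3f1, which neurons also express, and the more restricted Cdh19 had 1.94 and 0.584 TPM in the Npy libraries, against a listed 0 in each Pomc library. Limma called no gene of these 3 lists, with 1 at an unadjusted p under 0.05. The part of these cell types in the levels of Pdgfra, Cspg4 and Sox10 was not tested.

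**Figure D4:**
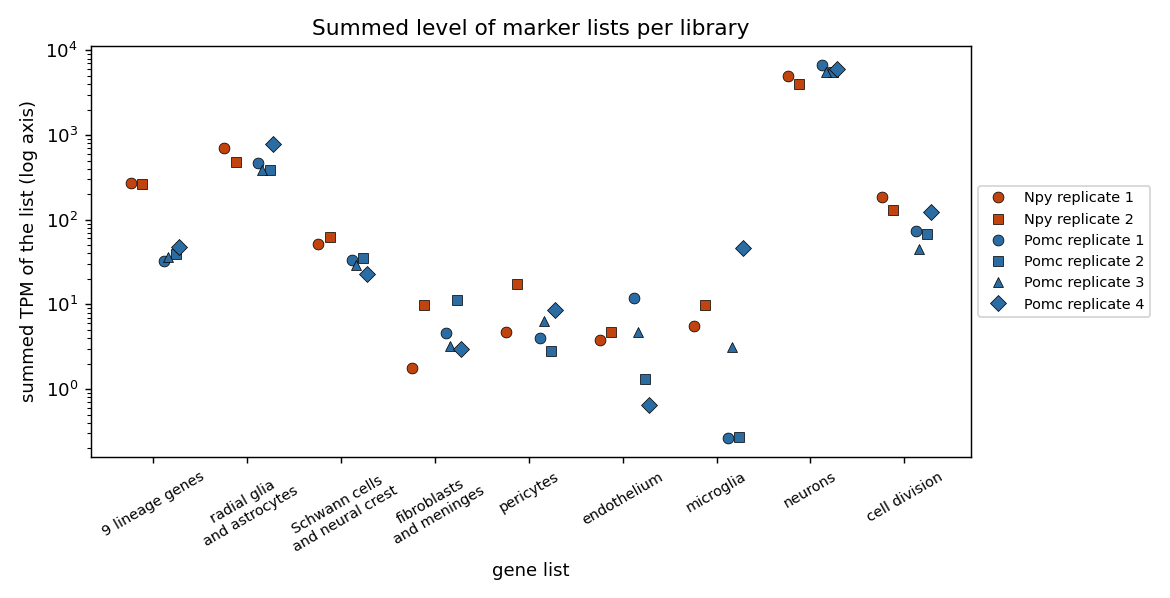
Summed TPM per library (log axis) of the 9 lineage genes and of marker lists of other cell types, with Npy libraries in orange on the left and Pomc libraries in blue on the right of each list. The lineage genes (267.8 and 265.9 TPM against 32.5 to 48.1 TPM) and cell division genes lie above all Pomc libraries in both Npy libraries, as do the Schwann and neural crest genes.

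Summed levels of radial glia genes overlapped between the groups, while those of cell division genes lay above every Pomc library in both Npy libraries. The 14 radial glia and astrocyte genes summed to 711 and 486 TPM in the Npy libraries, against 470, 386, 390 and 773 TPM in Pomc replicates 1 to 4. The overlap thus came from Pomc replicate 4 alone. Gfap was listed at 0 throughout. Fabp7, a lipid-binding protein gene of radial glia and precursors, had 323 and 176 TPM in the Npy libraries, against 17.4, 21.8, 1.61 and 61.6 TPM in Pomc replicates 1 to 4 (log2 3.89 ± 1.00, limma adjusted p = 0.272). Vim, an intermediate filament gene of progenitors, had 206 and 155 TPM in the Npy libraries and 201 to 530 TPM in the Pomc libraries. The 12 cell division genes summed to 184 and 129 TPM in the Npy libraries, against 74.3, 67.2, 45.1 and 122 TPM in Pomc replicates 1 to 4. Limma called none of the 11 tested radial glia genes and none of the 12 cell division genes, with 3 and 4 at an unadjusted p under 0.05. Both Npy libraries stood above every Pomc library in 3 of the 11 and 4 of the 12, and in 7.86% of all genes tested. They stood below every Pomc library in 1 of the 11 and 0 of the 12, and in 8.05% of all genes tested. The part of these cells in the levels of the 9 genes was not tested.

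Markers of neurons were abundant in both groups. The 12 neuronal genes summed to 4943 and 4002 TPM in the Npy libraries, against 6780, 5515, 5610 and 6032 TPM in Pomc replicates 1 to 4, and limma called none, with 4 at an unadjusted p under 0.05. The 9 lineage genes together had 267.8 and 265.9 TPM in the Npy libraries, below the summed neuronal level. Sums over different gene lists do not give shares of cells or of RNA.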

How the data were processed

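The deposited table holds 18335 rows, with 4 Pomc and 3 Npy columns. Its header names no unit. TPM was inferred as the unit of the deposited values, since they are not whole numbers, each column used has the same sum and short RNA genes are highest. RNA (1 ng per library, SMARTer Stranded Total RNA-Seq Kit v2) was sequenced on an Illumina HiSeq instrument, per the labels. HISAT2, mm10 and edgeR 3.8 appear in the submitters' processing notes, without their roles. The sources used here do not give the counting tool, annotation or use of strand. Here, 4 rows with repeated, date-like symbols were left out, and genes at 1 TPM or more in at least 2 of 6 libraries (13845) were fitted with limma 3.58.1 (R 4.3.3, trend) on log2(TPM + 1), Npy minus Pomc, two-sided. The fit was tested on simulated data. Coordinates and overlaps come from GENCODE (GRCm38), the same build as mm10, and promoters from RefSeq. The members and lists were chosen with earlier results of these data known. Genes named are the 9 members, each called gene and the 3 most abundant of the other lineage lists, the 10 closest profiles, the sort genes, and, of other cell types, genes at 0 throughout and the 2 highest; other names were chosen after their values were seen or for their role. Opalin and Foxd3 of the lists were not analysed here, and a few genes of the lists and of the closest profiles are not reported here. Alternatives were 2 pseudocounts, 2 filters, 2 scalings, no trend, each library left out, a replicate block and all 7 columns.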

Additional observations from a re-analysis of the deposited data

Results flagged for a closer look

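In 17 genes and library measures, the Pomc library farthest from the others was set against the range of the 4 Pomc libraries, and 2 stood apart. Olig2 and Cspg4 were among the 17 but are listed at 0 in all 4 Pomc libraries, so they could not be examined. Chance flags about 1 in 20 such groups if values are normally distributed, which does not hold for genes mostly at 0. Sox10 was at 0.444 TPM in Pomc replicate 4 and listed at 0 in the other 3 Pomc libraries, where any value above 0 would stand apart. Pdgfra was at 0.484 TPM in Pomc replicate 2, against 0.0795 TPM in Pomc replicate 3 and 0 in the other 2. Both values lie far below the Npy libraries, which had 19.7 and 25.1 TPM of Sox10 and 83.7 and 77.5 TPM of Pdgfra.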

How the results depend on the processing

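The signs of the log2 differences of all 9 lineage genes were the same under all 15 alternatives. Of these, the 2 filters and the fit without trend cannot change a log2 difference. The differences ran from 4.06 to 8.81 for Pdgfra, 2.13 to 7.40 for Olig2, 0.997 to 2.65 for Sox8 and -0.29 to -0.03 for Mbp. The low and high ends of Pdgfra and Olig2 came with pseudocounts of 5 and 0.1. Genes not overlapping between groups numbered 6 under both scalings and 6 to 8 with 1 library left out (8 without Npy replicate 1, with Sox8 and Bcas1; 7 without Pomc replicate 2, with Sox8). The log2 ratio of the summed level of all 9, Npy over Pomc, was 2.77 and ran from 2.69 to 2.88. Over all genes, limma called 57, against 37 with a pseudocount of 0.1, 33 with no filter, 205 with all 7 columns, and 11 to 50 with 1 library left out and the same genes tested. Higher in Npy neurons were 17, against 8 with a pseudocount of 0.1, 11 with no filter, 11 with a filter of 5 TPM, 95 with all 7 columns, and 0 (without Npy replicate 2, with 267 at an unadjusted p under 0.05) to 19 with 1 library left out. With the replicate number as a block, limma called 12 genes, 2 of them higher in Npy neurons and 0 differentiation genes (Tcf7l2 log2 -4.00, adjusted p = 0.0584, against -3.92 without the block). Deviations of same-numbered libraries from their group means correlated across genes at -0.04 and -0.03. With 2 Npy libraries these correlations are not independent, so they do not settle whether the numbers pair the libraries. Of the further precursor genes, 1 passed without trend (Rlbp1), 3 with all 7 columns (Vcan, Bcan and Rlbp1), and 0 to 1 with 1 library left out. All 7 columns gave 2 calls of differentiation genes (Tcf7l2 and Tmem163) and 1 of growth factor genes (Fgfr2). These 7 columns still hold 2 Npy measurements. The cause of these changes was not tested. Values near 0 are limited by an unknown depth.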

Other observations

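Microglial genes shared a pattern in part. P2ry12, Csf1r, Cx3cr1 and C1qc were highest in Pomc replicate 4, while C1qb, Aif1 and Ptprc were highest in other libraries. Cx3cr1 and C1qc had 6.55 and 3.28 TPM in Pomc replicate 4, against 0.548 TPM or less in the other 5 libraries. P2ry12, a purine receptor gene of microglia, had 22.7 TPM in Pomc replicate 4 and was listed at 0 in the other 5 libraries, and Csf1r, the receptor gene for their growth factor, had 0.531 and 1.65 TPM in the Npy libraries, against 0.263, 0, 0 and 13.1 TPM in Pomc replicates 1 to 4. The complement gene C1qb had 2.71 and 8.33 TPM in the Npy libraries, against 0, 0, 0 and 0.680 TPM in Pomc replicates 1 to 4 (log2 2.37 ± 0.70, SE, limma adjusted p = 0.375). C1qb reached the filter only through the Npy libraries, which fixed its direction. Aif1 was above 0 in Pomc replicate 3 alone, at 2.27 TPM. The 10 microglial genes summed to 5.58 and 9.97 TPM in the Npy libraries and 0.263 to 46.2 TPM in the Pomc libraries, while Tyrobp, C1qa and Trem2 were listed at 0 in all 6. The 6 lineage genes that separated the groups summed to 0.444 TPM in Pomc replicate 4, the lowest of the Pomc libraries. The 8 endothelial genes summed to 3.78 and 4.73 TPM in the Npy libraries and 0.656 to 11.98 TPM in the Pomc libraries. Pecam1 reached 1.77 and 1.39 TPM in Npy libraries, against 0.656 to 3.29 TPM in the Pomc libraries, and Cldn5 was at 0 in both Npy libraries and 0 to 4.89 TPM in the Pomc libraries.

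Olig1 and Olig2 are nearest neighbours of each other and share the pattern. The other nearest measured genes on either side of the 9 lineage genes, leaving out short RNA genes, numbered 16, of which 11 were tested. Limma called none of the 11, against 0.412% of all genes tested, with 0 at an unadjusted p under 0.05. Polr2f, an RNA polymerase subunit gene 3134 bases from Sox10, had 99.4 and 72.6 TPM in the Npy libraries and 55.4 to 83.6 TPM in the Pomc libraries. Kit, the receptor gene next to Pdgfra at a distance of 376701 bases, had 10.1 and 17.5 TPM in the Npy libraries and 14.3 to 25.1 TPM in the Pomc libraries. Ifnar2, the neighbour of Olig1 on the side away from Olig2, had 3.99 and 1.10 TPM in the Npy libraries and 2.66 to 3.93 TPM in the Pomc libraries. These neighbours were looked up after the values of the 9 genes were known.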
